A study of Mus musculus with 6 samples.

Results

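Matrix metalloproteases, ADAM and ADAMTS proteases, ADAMTS-like proteins and the tissue inhibitors of metalloproteases were examined in gastrocnemius, the large calf muscle, of mice with and without a muscle deletion of Usp21. Members were taken by gene symbol (Mmp, Timp, Adam, Adamts or Adamtsl followed by a digit), which gave 84 of the 24532 genes in the table. Usp21 encodes a ubiquitin-specific protease. Messenger RNA of whole muscle was sequenced from 3 control samples of mice carrying floxed Usp21 alleles (USP21 flox/flox) and 3 knockout samples of mice with the same alleles plus Ckmm-Cre, in which the promoter of muscle creatine kinase drives the Cre enzyme that cuts floxed DNA. All mice were C57BL/6 and 12 weeks old. The controls' genotype field reads Litter. The labels number the samples as replicates without saying whether each came from a separate mouse, so the p-values reflect only how these samples vary, which may be technical. The deletion is directed to muscle fibres, whereas a whole muscle also holds fibroblasts, vessels, nerve, tendon and blood cells.

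Matrix metalloproteases (MMPs) are zinc enzymes that cut collagens, proteoglycans and other matrix proteins, and TIMPs bind and block their active site. ADAMs are membrane-anchored relatives that release growth factors, cytokines and receptors from the cell surface, while ADAMTS enzymes are secreted and cut proteoglycans or trim procollagen. ADAMTS-like proteins lack the protease domain and bind the fibrillin microfibrils of the matrix. In muscle, much of this set is known from fibroblasts, leukocytes and vessel cells as well as from fibres and satellite cells.

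Libraries held between 48658436 and 67332846 counts, and 52 to 58 members had at least 1 count in a given library. Usp21 stood at 19.3, 19.3 and 19.1 CPM (counts scaled to library depth, corrected by TMM factors) in controls 1 to 3, whereas knockouts 1 to 3 had 9.08, 7.19 and 7.46 CPM (edgeR log2 fold change -1.28, SE 0.11, adjusted p = 0.0355). With 1 library left out, the adjusted p lay between 0.0185 and 0.186, and it stayed under 0.05 only without knockout 1 or knockout 3. The exact permutation test of these values (two-sided) had p = 0.1, and no smaller p is possible with 3 libraries in each group. Markers of muscle fibres were abundant throughout (7 markers, summed FPKM 72999 to 90270). Slow-fibre markers were uneven, with a summed FPKM of 110.4 in control 3 against 402 to 1237 in the other 5 libraries. The number of genes called was 8 with all libraries and 141 without knockout 3, and the values of members without a single library are given below where they differed by over 1.5 times.

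Inhibitors were the most abundant members. The 4 TIMPs together took 47.1% of the summed FPKM of the 84 members (FPKM is fragments per kilobase of transcript and sequencing depth, a scale on which genes can be compared). ADAMs known outside the reproductive tract took 17.7%, secreted MMPs 11.7%, ADAMTS-like proteins 9.48%, ADAMTS proteases 9.37%, membrane-anchored MMPs 4.2%, and the remaining ADAMs, mostly described in testis and epididymis, 0.334%. Timp3, a TIMP that stays bound to the matrix and also blocks ADAM17, was highest, with 54.5, 71.9 and 58.9 FPKM in controls 1 to 3, against 86.7, 65.5 and 78.3 FPKM in knockouts 1 to 3. Timp2, which both inhibits MMPs and helps Mmp14 activate the Mmp2 precursor, followed with 43.1 to 61.4 FPKM, a range that overlapped that of Timp3.

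The next members were the gelatinase Mmp2 (24.0 to 37.2 FPKM), the disintegrin protease Adam9 (23.8 to 26.2 FPKM) and Timp4 (19.6 to 25.7 FPKM), and their ranges overlapped one another. Adam15, a membrane protease with a disintegrin domain, averaged 15.0 FPKM over the 6 libraries, the microfibril-binding Adamtsl4 14.8, the proteoglycan-cutting Adamts1 11.8 and Adamtsl5 11.2 FPKM. Mmp15, a transmembrane MMP, averaged 6.31 FPKM. Adam17, which releases tumour necrosis factor and ligands of the EGF receptor, averaged 5.28 FPKM, and Adam10, which cleaves Notch, 4.87 FPKM. Timp1, the inducible soluble inhibitor, was far below the other TIMPs at a mean of 1.21 FPKM.

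**Figure D1:**
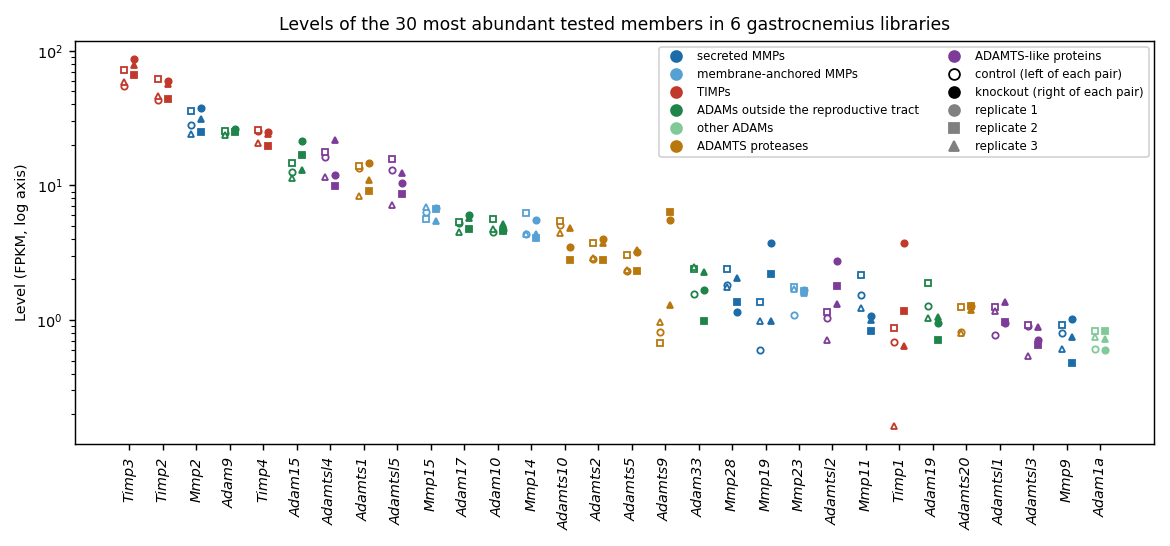
FPKM (log axis) of the 30 tested members with the highest mean, with 3 control libraries (open, left) and 3 knockout libraries (filled, right) per gene and colours for the role groups. Timp3 and Timp2 are highest, and Adamts9, Mmp19 and Timp1 show the widest spread among the knockout libraries.

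Many members were silent in this muscle. Of the 84 members, 22 had no count in any library, and 0 counts allow a level of up to 0.0454 to 0.0598 CPM per library (3 counts, counting error only). A further 11 had counts but did not pass the filter on low counts, which left 51 members for testing. Of the 21 ADAMs mostly described in testis and epididymis, 15 were at 0 and 3 were tested, the retained ones being Adam1a, Adam1b and Adam4. Adam28 and Adamts19 were the only silent members of their groups. The untested members with most counts were Adam5 (32 counts in all), Mmp25 (30 counts) and Adamts17 (24 counts). Mmp8, the collagenase of neutrophils, chosen after its values were seen, had 0 counts in each control and 7, 6 and 6 counts in knockouts 1 to 3. Its 3 knockout libraries were thus the only ones with a read, at 0.107 to 0.119 CPM, and it was not tested. Other untested members, also named after their values were seen, went either way. Mmp13 (1, 10 and 0 counts in controls 1 to 3) and Adam32 (0, 6 and 2) had counts only in controls. Adamts13 (7 counts in all), Mmp12 (3) and Mmp21 (2) had counts only in knockouts.

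Many of the members at 0 were neighbours in the genome. On chromosome 9 (GRCm38.p6, the assembly that mm10 names), 10 secreted MMPs occupied 7272514 to 7699585 in the order Mmp13, Mmp12, Mmp1b, Mmp3, Mmp1a, Mmp10, Mmp8, Mmp27, Mmp20 and Mmp7. These 10 genes had 477 counts over all 6 libraries, 5 of them none, and 2 were tested (Mmp3 and Mmp27). The other gene groups on chromosome 8 included Adam24, Adam25, Adam20 and Adam39, and Adam26b, Adam26a and Adam34, all at 0. In another group on chromosome 8, from 24602246 to 25017040, the abundant Adam9 had the neighbours Adam18 and Adam3, both at 0, and Adam5 and Adam32, which had few counts.

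RefSeq promoter windows (250 bases before to 50 after a start site) were found for 53 members, 58 windows in all. The AP-1 letters TGAGTCA (either strand), the core site of Fos and Jun factors, were in 10 of these 58 windows (17.2%), against 5.2% of all 32851 windows of that length. Of the windows of untested members, 7 of 23 held them, and of tested members 3 of 35, namely Adam19, Adam1b and Mmp3. All 7 cluster genes that held them had them within 100 bases before a start site, and they are printed here because they hold most of the matches among all members. They come from the plus strand at chr9:7272414-7272513, chr9:7347274-7347373, chr9:7445722-7445821, chr9:7464041-7464140, chr9:7502242-7502341 and chr9:7691990-7692089, and from the minus strand at chr9:7388027-7388126, and are listed in genome order. Each ends at the base before the start site, and capitals mark AP-1 letters and the TATA-box letters TATAAA. Mmp12 and Mmp7 each had another RefSeq start, and the 100 bases before it held neither set of letters and are not printed. These lie at chr9:7344297-7344396 for Mmp12, just before the gene's own start, and at chr9:7692241-7692340 for Mmp7.
Mmp13: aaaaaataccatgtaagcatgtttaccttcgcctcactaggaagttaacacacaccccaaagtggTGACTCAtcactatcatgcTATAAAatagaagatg
Mmp12: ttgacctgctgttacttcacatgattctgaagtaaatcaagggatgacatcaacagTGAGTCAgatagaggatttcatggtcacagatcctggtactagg
Mmp1b: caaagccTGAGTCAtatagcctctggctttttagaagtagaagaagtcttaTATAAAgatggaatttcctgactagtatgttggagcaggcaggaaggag
Mmp3: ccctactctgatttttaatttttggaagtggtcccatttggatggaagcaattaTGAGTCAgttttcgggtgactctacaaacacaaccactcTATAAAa
Mmp1a: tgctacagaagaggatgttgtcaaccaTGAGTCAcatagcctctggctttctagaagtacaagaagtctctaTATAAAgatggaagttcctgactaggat
Mmp10: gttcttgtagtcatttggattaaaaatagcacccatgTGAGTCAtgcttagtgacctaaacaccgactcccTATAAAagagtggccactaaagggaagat
Mmp7: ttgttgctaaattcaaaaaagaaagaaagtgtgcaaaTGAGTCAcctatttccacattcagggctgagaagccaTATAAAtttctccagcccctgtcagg

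A set of 4 tested members, whose group values are described further on, had none of these letters in the same stretch. They were picked without a rule. Other tested members did have such letters there: Adamts1 and Adamtsl2 had TATA-box letters at -32 and -30 bases, and Mmp3 above was itself tested. The 100 bases before a RefSeq start of Timp3 (chr10:86300312-86300411, plus strand), Timp1 (chrX:20870066-20870165, plus strand), Adamts9 (chr6:92943535-92943634, minus strand) and Adamts20 (chr15:94404351-94404450, minus strand) are shown for comparison, all in lower case. Their share of G and C was 69%, 65%, 72% and 81%, against 38% to 42% in the 7 stretches above.
Timp3: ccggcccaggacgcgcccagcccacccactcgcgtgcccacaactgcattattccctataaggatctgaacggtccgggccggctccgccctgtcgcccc
Timp1: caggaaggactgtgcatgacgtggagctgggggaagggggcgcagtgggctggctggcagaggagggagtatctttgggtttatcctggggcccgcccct
Adamts9: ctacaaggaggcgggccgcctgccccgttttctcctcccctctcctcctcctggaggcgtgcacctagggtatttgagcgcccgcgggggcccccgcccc
Adamts20: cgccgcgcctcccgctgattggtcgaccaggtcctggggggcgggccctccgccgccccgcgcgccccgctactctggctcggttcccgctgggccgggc

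TATA-box letters, counted on either strand, were in 12 of the 23 untested windows and 3 of the 35 tested ones, against 13.6% of all windows. Adam6a, Adam6b and Mmp8 matched only on the opposite strand, as TTTATA. The median share of G and C was 43.0% in untested and 65.3% in tested windows, and 52.7% in all. The CRE letters TGACGTCA, the NR4A letters AAAGGTCA and the heat shock element were in none of the members' windows on either strand, against 1.79%, 1.51% and 0.603% of all windows. The E-box letters CACGTG were in 5 of the 58 windows (8.62%) and in 7.15% of all. Windows of 1 gene can overlap, and a letter match is not a measured site.

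**Figure D2:**
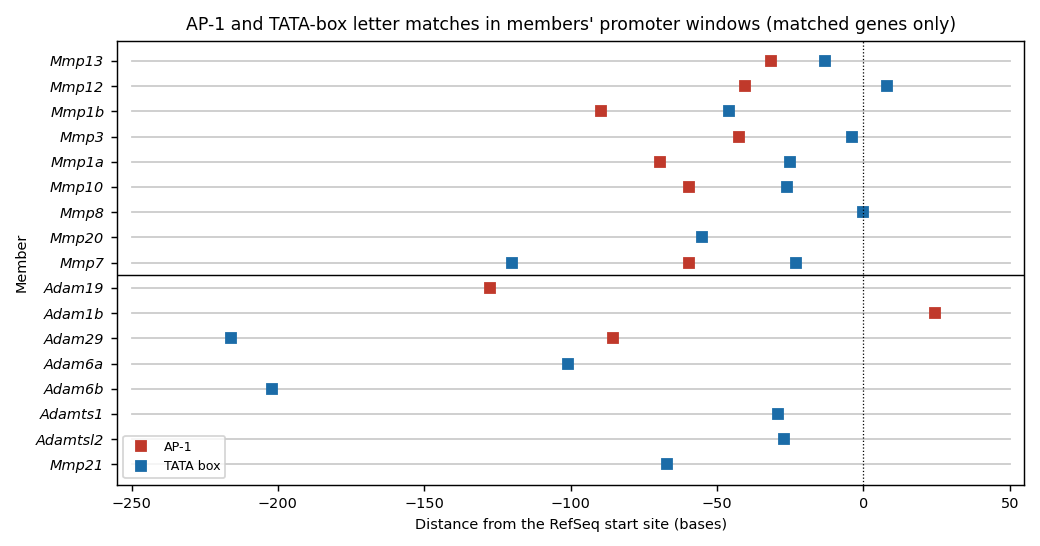
Matches to AP-1 (red) and TATA-box (blue) letters on either strand, by distance in bases from the RefSeq start site, for members with at least 1 match. Above the line are the genes of the chromosome 9 cluster, where 7 genes have AP-1 letters; below it are all other matched members.

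No member passed the test of knockout against control. Of the 51 members tested, 0 had an edgeR adjusted p under 0.05, against 0.0567% of all 14109 genes tested (8 genes), and the smallest adjusted p among members was 0.241. At an unadjusted p under 0.05, 11 members were higher and 2 lower in knockout muscle, together 25.5% of members against 11.6% of all genes (6.56% higher and 5.07% lower). The count of 11 was 3 without control 1, 7 without control 3 and 5 without knockout 1, and 3 with log2 FPKM in place of counts. The count of 2 was 0 without control 2 or knockout 2, 1 without control 1 or knockout 1, and 4 without knockout 3. Log2 fold changes (knockout minus control) were positive for 37 of 51 members (72.5%) against 49.3% of all genes, with a median of 0.10 against -0.0037. That median was 0.064 without knockout 1, 0.066 without control 1, 0.16 without knockout 2 and 0.19 without control 2. With FPKM that excess shrank, to 28 positive members and a median of 0.0075 with FPKM plus 1, and to 26 and 0.0084 with FPKM plus 0.1, where all genes had medians of -0.047 and -0.070. The groups did not overlap in 10 members (19.6%) against 17.3% of all genes, so the share in both directions together was near the background. By direction, 8 members were higher (15.7%, against 8.38% of all genes) and 2 lower (3.92%, against 8.87% of all genes).

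**Figure D3:**
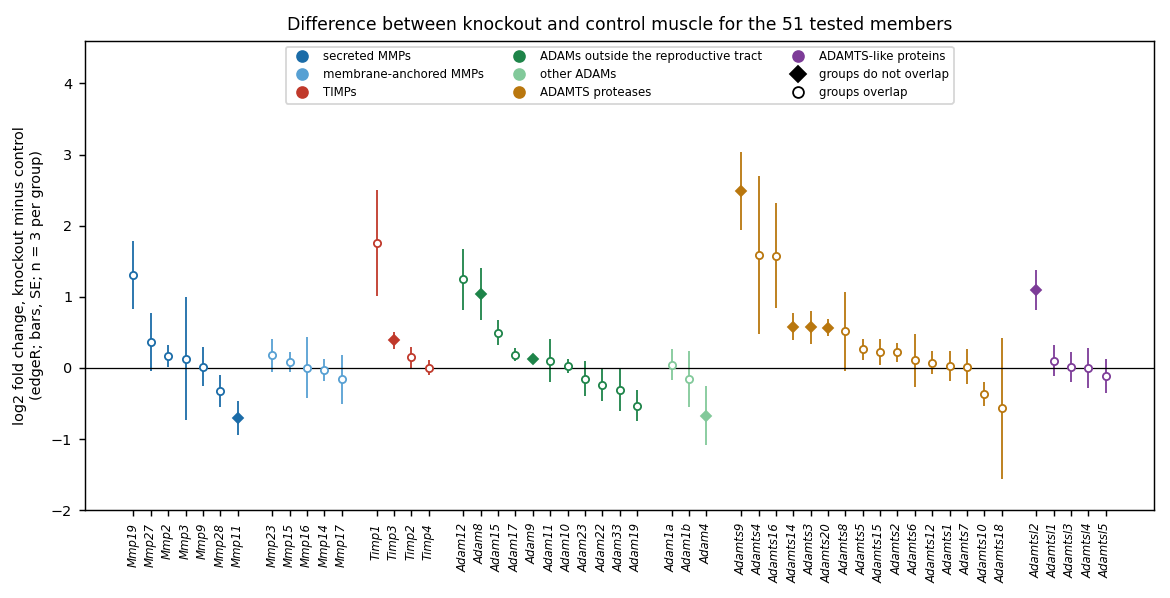
Log2 fold change (knockout minus control, edgeR, bars for SE, 3 libraries per group) of the 51 tested members, ordered within the 7 role groups; filled diamonds mark members whose groups do not overlap. Adamts9 is highest at 2.49 and Mmp11 lowest at -0.71.

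Among the inhibitors, 4 of 4 TIMPs had a positive log2 fold change (3 of 4 with upper-quartile scaling or FPKM, where Timp4 turned) and none passed. Timp3 (Entrez 21859; chromosome 10, 86300412 to 86349505) stood at 251, 320.2 and 285 CPM in controls 1 to 3, against 413, 332 and 373 CPM in knockouts 1 to 3. All knockouts were above all controls, although control 2 and knockout 2 nearly met (285 ± 34.5 against 373 ± 40.3 CPM, SD, n = 3 each; edgeR log2 fold change 0.39, SE 0.12, adjusted p = 0.363). Timp1 (Entrez 21857; chromosome X, 20870166 to 20874737) was at 0.618, 0.756 and 0.166 CPM in the controls, against 3.39, 1.17 and 0.602 CPM in the knockouts. Knockouts 1 and 2 exceeded every control and knockout 3 did not (1.76, SE 0.74, adjusted p = 0.422), and without knockout 1 its log2 fold change was 0.78. Timp2 differed by 0.15 (SE 0.14), with 0.041 without control 1, 0.070 without knockout 1, 0.27 without control 2 and 0.24 without knockout 2. Timp4, a TIMP of heart and skeletal muscle, was at 33.4 ± 2.75 and 33.5 ± 3.07 CPM (SD, n = 3 each), a difference of 0.0046 whose sign turned with upper-quartile scaling, with FPKM and without control 3, knockout 1 or knockout 3. Timp1, Timp3 and Timp4 lie within the synapsin genes Syn1, Syn3 and Syn2 on the opposite strand, and whether counting used the strand is not given in the sources used here. Those genes had 66, 147 and 528 counts over all libraries, against 404, 116289 and 11769 for the TIMPs.

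ADAMTS proteases held the largest single difference, with 14 of 16 tested members positive, against 49.3% of all genes. That count was 12 with FPKM plus 1, 10 with FPKM plus 0.1, and 11 of 15 without knockout 1. At an unadjusted edgeR p under 0.05, 4 members were higher (25%, against 6.56% of all genes) and 0 lower. Adamts9 (Entrez 101401; chromosome 6, 92772699 to 92944450), which cuts versican and other proteoglycans, stood at 4.87, 3.90 and 6.02 CPM in controls 1 to 3, against 33.8, 41.5 and 7.94 CPM in knockouts 1 to 3. Knockouts 1 and 2 were far above the controls, and knockout 3 was just above the highest of them. Its mean was 5.63-fold higher (4.93 ± 1.06 against 27.7 ± 17.6 CPM, SD, n = 3 each; edgeR log2 fold change 2.49, SE 0.55, adjusted p = 0.241). Without knockout 3 it passed (log2 fold change 2.93, adjusted p = 0.00703), in a fit that called 0.836% of all genes higher. DESeq2's Wald test called it with all libraries (adjusted p = 0.0159), as well as Adamts20 (0.0133) and Adamtsl2 (0.0174), and called 1.49% of all genes higher. Over all alternative settings, the adjusted p of Adamts9 ran from 0.00703 to 0.763.

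Adamts20 (Entrez 223838; chromosome 15, 94268314 to 94432074), the closest relative of Adamts9, was even within groups, at 6.42, 5.43 and 6.55 CPM in the controls, against 9.32, 8.34 and 9.56 CPM in the knockouts. The groups stood clearly apart in counts (6.13 ± 0.611 against 9.08 ± 0.647 CPM, SD, n = 3 each; edgeR log2 fold change 0.57, SE 0.12, adjusted p = 0.241). The authors' FPKM did not follow these counts, with 0.820, 1.25 and 0.798 in controls and 1.28, 1.27 and 1.18 in knockouts, so that control 2 lay above knockout 3. Adamts14 and Adamts3, which with Adamts2 remove the amino-terminal propeptide of procollagen, had differences of the same size. Adamts14 was at 1.73, 1.87 and 2.33 CPM in the controls, against 2.73, 2.87 and 3.27 CPM in the knockouts (0.58, SE 0.19, adjusted p = 0.363). Adamts3, named after its values were seen, was at 1.64, 2.44 and 1.94 against 2.52, 3.61 and 2.83 CPM (0.57, SE 0.23, adjusted p = 0.405). In both genes all knockouts were above all controls. The third enzyme, Adamts2, had a higher level (3.33 FPKM, against 0.465 for Adamts14 and 0.321 for Adamts3), and its groups overlapped at means of 22.7 and 26.3 CPM (0.22, SE 0.14, adjusted p = 0.592).

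Other ADAMTS members did not share one course. Adamts10, named after its values were seen, was at 20.9, 21.8 and 19.4 CPM in controls 1 to 3. Knockouts 1 to 3 had 14.9, 12.8 and 20.5 CPM (log2 fold change -0.37, SE 0.17, edgeR adjusted p = 0.457). Knockouts 1 and 2 were thus below every control, and knockout 3 lay within the control range. Adamts1, the most abundant by FPKM, was at 57.5 ± 13.1 and 58.4 ± 12.9 CPM (SD, n = 3 each), and its difference of 0.024 changed sign with FPKM and without control 3 or knockout 1. Adamts4, a further proteoglycan-cutting enzyme named after its values were seen, was at 0.319, 0.478 and 0.212 CPM in the controls, against 1.43, 1.62 and 0 CPM in the knockouts. Knockouts 1 and 2 were thus above every control and knockout 3 had no count (1.59, SE 1.11, adjusted p = 0.630).

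Of the 5 ADAMTS-like genes, Adamtsl2 showed the largest difference. Adamtsl2 (Entrez 77794; chromosome 2, 27079336 to 27108981), a microfibril-associated protein that binds a latency protein of TGF-beta, was at 3.31, 3.52 and 2.39 CPM in the controls, against 9.08, 6.24 and 4.33 CPM in the knockouts. All knockouts were above all controls, and they were spread over a wide range (log2 fold change 1.09, SE 0.29, edgeR adjusted p = 0.305). The far more abundant Adamtsl4 was at 63.5, 67.6 and 47.2 CPM in the controls, against 47.8, 42.7 and 87.7 CPM in the knockouts. Its means were equal while knockout 3 stood above and knockouts 1 and 2 below most controls, so the sign of its difference (-0.0004) turned with DESeq2 size factors, DESeq2's test, the 1 CPM filter and without control 1, control 2, knockout 1 or knockout 2. Adamtsl5 differed by -0.11 (SE 0.24), Adamtsl1 by 0.10 (SE 0.21), both with overlapping groups, and both signs turned when a single library was left out.

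Among the 7 tested secreted MMPs, Mmp19 and Mmp11 lay at opposite ends, and 5 were positive (3 with FPKM, and 3 without knockout 1). Mmp19, which cuts basement membrane proteins, was at 1.97, 4.38 and 3.48 CPM in the controls, against 12.9, 8.03 and 3.41 CPM in the knockouts. Knockouts 1 and 2 were above every control and knockout 3 was within their range (log2 fold change 1.303, SE 0.48, edgeR adjusted p = 0.383), and without knockout 1 the log2 fold change was 0.79. Mmp11, or stromelysin 3, which is activated inside the cell by furin, was at 3.49, 4.66 and 2.62 CPM in the controls, against 2.32, 1.94 and 2.32 CPM in the knockouts. All knockouts were below all controls (-0.71, SE 0.24, adjusted p = 0.363). Mmp11 shares 3367 bases with Chchd10 on the opposite strand, which had 218671 counts against 1026, and Mmp19 shares 789 bases with Tmem198b (2434 counts against 2046). Mmp2 was at 88.1 ± 14.1 and 99.05 ± 16.7 CPM (SD, n = 3 each; 0.17, SE 0.16), a difference of 0.032 without knockout 1, 0.075 without control 3, 0.28 without knockout 2 and 0.29 without control 2. Mmp28, an MMP of epithelia and injured tissue, was at 6.94 ± 0.956 and 5.54 ± 1.63 CPM (SD, n = 3 each; -0.33, SE 0.22), with -0.15 without knockout 1, -0.22 without control 2 and -0.58 without knockout 3.

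Membrane-anchored MMPs had log2 fold changes from -0.16 to 0.17 over 5 tested members, the narrowest range of the 7 role groups. None was at an unadjusted edgeR p under 0.05, against 11.6% of all genes, a share too small to tell apart from none among 5 members. Mmp15 was at 27.0 ± 3.76 and 28.5 ± 3.90 CPM (SD, n = 3 each; 0.079, SE 0.14). Mmp14, named after its values were seen, the membrane enzyme that activates the Mmp2 precursor, was at 18.6 ± 3.28 and 18.2 ± 2.66 CPM (-0.030, SE 0.15). Mmp23 differed by 0.17 (SE 0.23) and Mmp17 by -0.16 (SE 0.34), and the signs of Mmp15, Mmp23 and Mmp17 each turned when 1 library was left out.

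ADAMs known outside the reproductive tract had 7 of 11 tested members positive (6 with FPKM, 5 without control 1 or knockout 3), against 49.3% of all genes. At an unadjusted edgeR p under 0.05, 3 were higher and 1 lower, together 36.4% against 11.6% of all genes. Adam15 was at 36.0, 40.3 and 33.6 CPM in the controls, against 63.2, 52.9 and 38.7 CPM in the knockouts (log2 fold change 0.49, SE 0.17, edgeR adjusted p = 0.369). Adam12, linked to myoblast fusion and to activated fibroblasts, was at 0.379, 0.602 and 0.408 CPM in the controls, against 1.47, 1.25 and 0.584 CPM in the knockouts (1.24, SE 0.42, adjusted p = 0.365). Knockouts 1 and 2 were above every control for both genes, and knockout 3 lay within the control range. Without knockout 1, the difference of Adam15 was 0.32. Adam8, an ADAM of leukocytes, was at 1.04, 1.28 and 1.41 CPM in the controls, against 3.83, 2.38 and 1.42 CPM in the knockouts, where knockout 3 barely exceeded the highest control (1.03, SE 0.37, adjusted p = 0.372). Its difference was 0.60 without knockout 1.

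The lower member was Adam19, a sheddase of neuregulins named after its values were seen, at 7.996, 11.4 and 6.81 CPM in the controls, against 6.21, 4.97 and 6.92 CPM in the knockouts (log2 fold change -0.53, SE 0.22, edgeR adjusted p = 0.408). Control 3 lay below knockout 3, so the groups overlapped. The main sheddases were steadier. Adam9 was at 97.6, 97.7 and 98.7 CPM in the controls, against 107.5, 109.5 and 103 CPM in the knockouts, groups that did not overlap though they differed by 0.12 (SE 0.070, adjusted p = 0.551). Adam17 differed by 0.18 (SE 0.094) and Adam10 by 0.028 (SE 0.096), the latter with a sign that turned with FPKM and without control 1 or knockout 3. In the small testis-type group Adam4 was at 0.291 ± 0.0657 and 0.181 ± 0.0177 CPM (SD, n = 3 each; -0.67, SE 0.41), from 83 counts in all, and it overlaps Cox16 (10198 counts). Adam1a (0.047) and Adam1b (-0.16), both overlapping other genes, had signs that turned without single libraries; that of Adam1a turned also with FPKM.

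**Figure D4:**
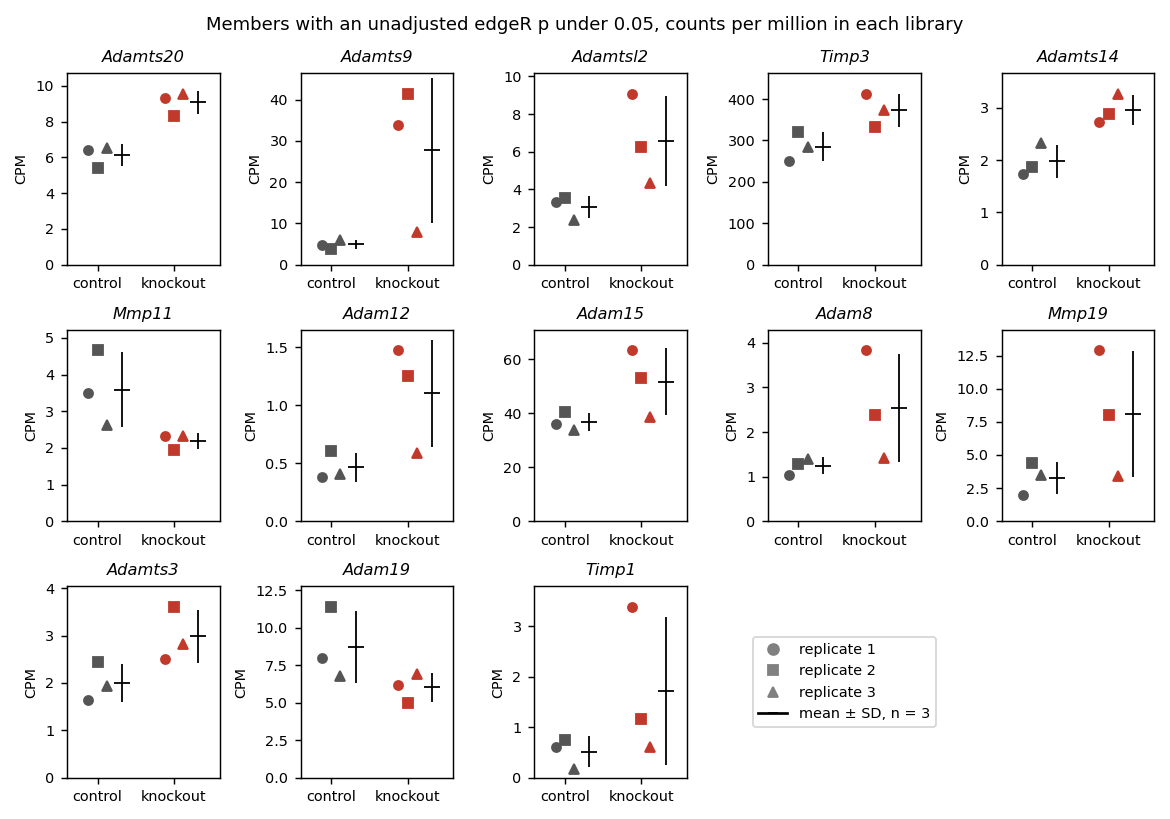
CPM in each of the 6 libraries for the 13 members with an unadjusted edgeR p under 0.05 (grey, control; red, knockout; bars, mean ± SD, n = 3). Adamts20 and Adamts14 are tight within groups, whereas Adamts9, Adam12, Adam15, Adam8, Mmp19 and Adamtsl2 are high in knockouts 1 and 2 and lower in knockout 3.

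The course across libraries varied among members. In 7 of the 51 members (13.7%) knockouts 1 and 2 were above every control and knockout 3 was not, against 9.66% of all genes: Adam12, Adam15, Adamts15, Adamts16, Adamts4, Mmp19 and Timp1. In 4 members (7.84%, against 3.98% of all genes) knockouts 1 and 3 were above every control and knockout 2 was not, namely Adam17, Adamts12, Adamts2 and Adamts5. In 0 members were knockouts 2 and 3 above every control with knockout 1 not, against 3.22% of all genes. Knockout 3 was the lowest knockout in 18 members (35.3%) and the highest in 19 (37.3%), close to the 37.7% and 38.3% of all genes. Some of these genes were chosen after their values were seen.

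Control 1 was the lowest library for 19 members (37.3%, against 14.5% of all genes), and knockout 1 the highest for 17 (33.3%, against 15.8%). The median deviation of members from their 6-library mean was -0.24, 0.14 and -0.14 (log2 CPM) in controls 1 to 3, against 0.18, -0.052 and 0.057 for the knockouts in the same order. Fibroblast and fibro-adipogenic markers (10 of 10 measured) summed to 1199, 1549 and 1173 FPKM in controls and 1411, 1146 and 1398 FPKM in knockouts. The 3 libraries with the higher fibroblast sums (control 2, knockout 1 and knockout 3) were the 3 in which members were above their mean. Over these markers 7 of 10 had a positive log2 fold change, and the group ranges overlapped (1173 to 1549 and 1146 to 1411 FPKM). Macrophage markers were highest in the same 3 libraries, with sums of 57.4, 99.7 and 58.7 FPKM in controls 1 to 3, against 104, 59.2 and 95.9 FPKM in knockouts 1 to 3, and 9 of 10 were positive. Smooth muscle and pericyte markers were highest there too, with sums of 157.8, 175.9 and 133.8 FPKM in controls and 162.2, 131.4 and 162.0 FPKM in knockouts. Of these markers, 4 of 7 were positive. Endothelial, Schwann cell and satellite cell sums did not have these 3 libraries highest. Neutrophil markers summed to 0.0533 to 1.05 and 0.556 to 2.07 FPKM, with Ly6g at 0 in every library, and tendon markers to 189.6 to 441 and 358 to 398 FPKM, with 7 of 8 positive. In whole muscle, more cells of a type and more RNA per cell cannot be told apart, and the part of these cell types in the members' values was not tested.

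**Figure D5:**
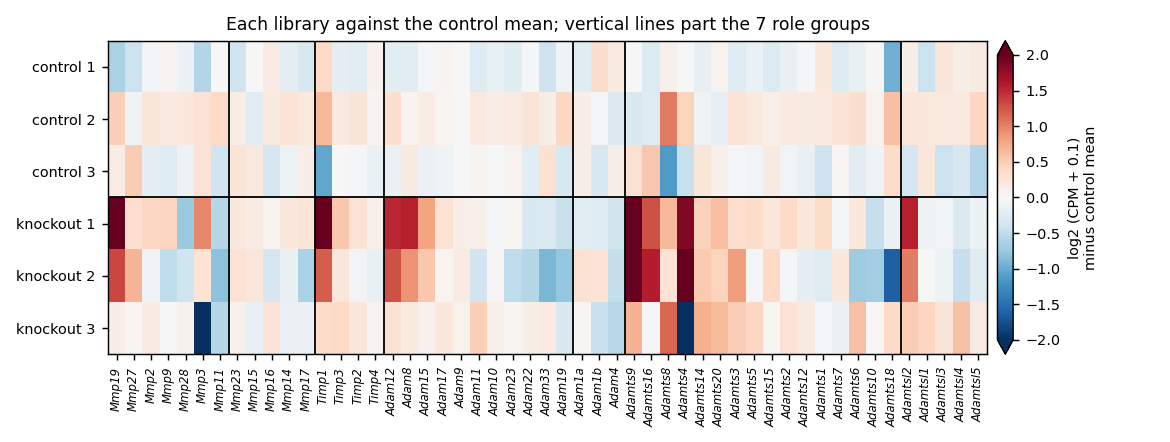
Difference of each library from the control mean, in log2 (CPM + 0.1), for the 51 tested members in 7 role groups; colours saturate beyond 2 in either direction. Knockouts 1 and 2 are red for Adamts9, Adamts4, Mmp19, Timp1, Adam12 and Adam8, and knockout 3 is pale for most of these and blue for Adamts4 and Mmp3.

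Genes that work with these proteases were counted in 5 lists, and none of their members passed. The matrix substrates Col1a1, Dcn and Lum are also among the fibroblast markers above, and Fmod and Comp among the tendon markers. The counts of positive genes in these lists are therefore not separate observations. Matrix substrates had 21 of 21 tested members positive with a median of 0.38, also with other scalings, with FPKM and without any single library (medians 0.31 to 0.56 without one), and 10 were at an unadjusted p under 0.05 (6.56% of all genes were higher at that threshold). Elastin (Eln) was at 37.1, 38.1 and 37.4 CPM in the controls, against 53.4, 55.1 and 48.6 CPM in the knockouts (log2 fold change 0.48, SE 0.076, edgeR adjusted p = 0.145), and Sparc, a collagen-binding protein, differed by 0.61 (SE 0.12, adjusted p = 0.237). Versican (Vcan), the proteoglycan that Adamts9 and Adamts20 cut, named after its values were seen, was at 7.52, 12.1 and 8.76 CPM in the controls, against 33.8, 27.1 and 12.4 CPM in the knockouts. Its knockouts were all above its controls, with knockout 3 nearest to them (1.37, SE 0.36, adjusted p = 0.305).

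Shed ligands and receptors had 13 of 21 tested members positive, and between 12 and 16 with FPKM or without a single library. Hbegf, an EGF receptor ligand released by ADAMs, was at 15.1, 20.9 and 21.2 CPM in the controls, against 36.9, 62.9 and 53.6 CPM in the knockouts, with the groups well apart (log2 fold change 1.42, SE 0.21, edgeR adjusted p = 0.133). The heparan sulphate proteoglycan Sdc4 was at 23.7, 24.6 and 18.5 CPM in the controls, against 55.5, 44.6 and 34.8 CPM in the knockouts (1.01, SE 0.18, adjusted p = 0.194). Regulators of ADAM10 and ADAM17 had 6 of 11 positive (5 with FPKM or without knockout 1), with the tetraspanins Tspan15 at -0.41 (adjusted p = 0.333) and Tspan5 at 0.63 (adjusted p = 0.390). Other inhibitors and cofactors had 11 of 15 positive, with Pcolce, which enhances procollagen processing, at 0.44 (adjusted p = 0.363). Activators and the plasminogen system had 5 of 11 positive and none at an unadjusted edgeR p under 0.05, against 11.6% of all genes. In that list the urokinase receptor Plaur was at 0.95 and the proprotein convertase Pcsk7 at -0.18.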

How the data were processed

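Gene counts, FPKM and TPM of 6 libraries came from 1 table of the series. Read counts were deposited unnormalized, per the file headers. The FPKM and TPM columns hold the authors' own normalized values; TPM was not used. StringTie 1.3.4d, Bowtie2 2.3.4.1, FastQC 0.11.7, bcl2fastq 2.20.0 and mm10 appear, without roles, in the submitters' processing notes. Which program counted reads, and whether by strand, is not given in the sources used here. Per the labels' protocols, the kit preserved strand.

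edgeR 4.0.16 (R 4.3.3) was fitted to the counts of all genes: filterByExpr with a minimum count of 10, TMM scaling, quasi-likelihood test, Benjamini-Hochberg adjustment over 14109 genes and a threshold of 0.05. Standard errors came from the F statistic. The script was tested on simulated data. Coordinates and promoters are from RefSeq GRCm38.p6 (84 of 84 members matched by Entrez identifier for coordinates, 53 for promoters); gene overlaps are from GENCODE M21. No pair of libraries within a group looked like a duplicate (chi-square over its degrees of freedom at least 33.6).

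The members, lists and roles were chosen with earlier results of these data known. Named are all TIMPs, the 3 tested members of each role group with the smallest p, the 12 highest by FPKM, the 3 untested members with most counts, and in each other list the 2 with the smallest p; other names are said to be chosen after their values were seen. Some results that this rule covers are not reported here. Alternatives were other scalings (DESeq2 size factors, upper quartile), filters (none, or 1 CPM), DESeq2 1.42.0, limma-voom and limma-trend on FPKM (limma 3.58.1), a replicate block, an adjusted p under 0.10, and leaving out each library.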

Additional observations from a re-analysis of the deposited data

How the results depend on the processing

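Scaling by DESeq2 size factors or the upper quartile, either filter and an adjusted p under 0.10 left the counts of called members and genes as they were. DESeq2's Wald test called 3 members and 290 genes, limma-voom 5 genes, and limma-trend 1 gene with either FPKM offset. With FPKM, 3 members were higher and 1 lower at an unadjusted p under 0.05, counts added after the data were seen, and Usp21 was at -1.15 (FPKM plus 1, limma adjusted p = 0.0657) or -1.34 (plus 0.1, 0.0552). Replicate numbers did not pair the libraries (correlations of same-numbered deviations -0.0082, -0.19 and -0.098). A replicate block left 0 genes called, 0 members lower at an unadjusted p under 0.05, and Usp21 at -1.29 (adjusted p = 0.200).

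Leaving out single libraries gave 1 to 141 genes called (141 without knockout 3), 0 to 1 members called, 3 to 11 members higher and 0 to 4 lower at an unadjusted p under 0.05, a member median of 0.064 to 0.19, and Usp21 at -1.40 to -1.22. Signs turned in these fits for Adam10 (-0.044 to 0.089), Adam1a (-0.10 to 0.17), Adam1b (-0.44 to 0.066), Adamts1 (-0.17 to 0.15), Adamtsl1 (-0.088 to 0.21), Adamtsl4 (-0.39 to 0.19), Adamtsl5 (-0.35 to 0.094), Mmp15 (-0.027 to 0.19), Mmp17 (-0.42 to 0.058), Mmp23 (-0.0089 to 0.31) and Timp4 (-0.062 to 0.077). Other sign changes were Adamtsl4 at 0.0035 (DESeq2 size factors), 0.0024 (1 CPM filter) and 0.0034 (DESeq2), and Timp4 at -0.0092 (upper quartile). With FPKM plus 1 and plus 0.1, Adam10 was at -0.033 and -0.039, Adam1a at -0.011 and -0.023, Adamts1 at -0.040 and -0.042, and Timp4 at -0.064 and -0.067. The causes were not tested.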
